A study of Mus musculus with 68 samples.

Results

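10 genes of the Wnt pathway were described across mouse mammary tumours: 5 secreted inhibitors (Wif1, Sfrp1, Sfrp2, Dkk2 and Dkk3), 3 receptors (Lgr5, Lrp5 and Lrp6), and 2 target genes that are also feedback inhibitors (Axin2 and Notum). They were chosen by name, with earlier results on Wif1 known, and are 10 of the 18194 genes that the array's annotation names singly. Each gene was represented by the one of its probe sets with the highest mean, and the 10 genes have 18 probe sets. The tumours arose spontaneously in mice that carried the MMTV-PyMT transgene, in which a promoter active mainly in mammary epithelium drives the polyoma middle T oncogene, and the animals were ((NZB x PyMT) x FVB) backcross mice. All samples carried the transgene and form 1 group without controls, so the comparisons are between tumours. Age, treatment and tumour stage are not given in the sources used here. Of 68 Affymetrix arrays, 56 were used, each from another animal, and samples are named by the animal number in their titles.

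Wnt ligands are secreted with the help of Porcn and Wls and bind a Frizzled receptor together with the co-receptor Lrp5 or Lrp6. Binding stops the destruction complex, which contains Axin and Apc, from removing beta-catenin, and beta-catenin then acts with TCF and LEF factors on target genes. Sfrp and Wif1 proteins bind Wnt ligands outside the cell, Dkk proteins act at the Lrp co-receptors (Dkk3 is a divergent member), and Notum removes the lipid that Wnt ligands need. Axin2 is widely used as a readout of beta-catenin activity, and Lgr5 binds R-spondins, which keep the ubiquitin ligases Znrf3 and Rnf43 from clearing Frizzled receptors. In the mammary gland the pathway is known for its part in ductal development, stem cells and tumours driven by Wnt1, and in skin for the growth of hair follicles.

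The upstream sequences of Axin2, Wif1 and Sfrp2 are shown because Wif1 and Axin2 had the largest SD of the 10 genes and Sfrp2 the highest r with a tissue score. They are the 250 bases that precede the annotated start of each gene in RefSeq on GRCm38.p6, all on the plus strand: chr11:108920099-108920348 for Axin2, chr10:121033754-121034003 for Wif1 and chr3:83766071-83766320 for Sfrp2. RefSeq promoter sequences were at hand for 4 of the 10 genes (these and Dkk2). Capitals would mark the TCF/LEF core motif CTTTGA or its reverse complement TCAAAG.
Axin2: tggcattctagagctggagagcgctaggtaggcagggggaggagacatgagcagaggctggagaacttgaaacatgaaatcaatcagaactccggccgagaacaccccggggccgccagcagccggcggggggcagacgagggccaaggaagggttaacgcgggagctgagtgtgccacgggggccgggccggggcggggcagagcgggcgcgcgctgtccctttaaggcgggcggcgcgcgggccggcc
Wif1: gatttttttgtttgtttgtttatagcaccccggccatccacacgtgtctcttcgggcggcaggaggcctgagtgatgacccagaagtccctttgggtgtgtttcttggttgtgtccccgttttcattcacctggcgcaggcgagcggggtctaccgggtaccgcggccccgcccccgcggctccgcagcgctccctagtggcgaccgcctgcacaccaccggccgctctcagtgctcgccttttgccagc
Sfrp2: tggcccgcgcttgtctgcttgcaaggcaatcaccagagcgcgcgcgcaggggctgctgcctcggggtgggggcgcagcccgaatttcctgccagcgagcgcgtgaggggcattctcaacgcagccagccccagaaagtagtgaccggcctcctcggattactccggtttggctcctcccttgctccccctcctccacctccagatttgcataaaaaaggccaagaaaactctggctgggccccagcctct
The motif was found 0 times in each of the 4 sequences, and 4544 of 32851 promoter windows of the same length in the table (13.8%) hold it on either strand. GC content was 69.2% for Axin2, 62.8% for Wif1, 63.6% for Sfrp2 and 55.6% for Dkk2.

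The values are RMA values, which combine the probes of a probe set after normalisation, and they are read as log2, so that 1 unit is a doubling. Arrays were kept where the mean of the 18S ribosomal RNA control probe sets was below 8. The 56 arrays kept lie between 5.03 and 6.84, and the 12 left out between 8.97 and 10.16. The mammary epithelial markers Krt8 (12.43 ± 0.20, SD, n = 56), Krt18 (12.40 ± 0.22) and Epcam (11.82 ± 0.27) were high and varied little. Of other luminal markers, Cdh1 (11.23 ± 0.17) varied as little. Krt19 (10.54 ± 0.72), Foxa1 (5.78 ± 0.71) and Pgr (4.12 ± 0.69) varied more, as did the basal marker Krt17 (6.46 ± 1.06). An even epithelial content is therefore not shown. Among the 56 arrays, arrays that stand apart were found from probe sets sharing exactly the same split: 9 arrays (array set 3, 44 probe sets on 14 chromosomes) and 8 arrays (array set 4, 121 probe sets on 18 chromosomes), with 39 arrays left as array set 1. These sets are not groups of the study. Array set 4 holds only animal numbers above 4000, and 8 of the 9 arrays of array set 3 have the suffix R in their titles, whose meaning is not given. Relations below are therefore given with array set as a block and within array set 1 where this bears on them. In bulk tumour RNA, fewer cells of a type and less RNA per cell cannot be told apart.

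**Figure D1:**
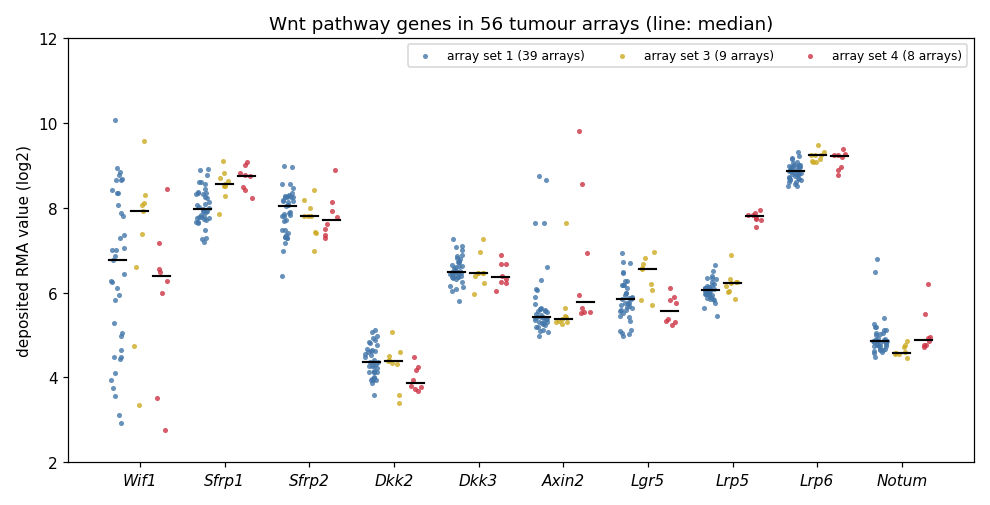
Deposited RMA value (log2) of the 10 genes in each of the 56 tumour arrays, by array set, with a line at the median of each set. Wif1 spans 2.75 to 10.07, Axin2 has a few high arrays up to 9.80, and all 8 arrays of array set 4 lie above the others for Lrp5. Array set 4 was itself found from probe sets with a clear split of this kind.

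The genes differed greatly in how much they varied. Since the genes were picked with results known, the levels are a description without a test, and levels are not compared between genes because each probe set has its own response. Wif1 varied most, with an SD of 1.90 that exceeded that of 99.8% of the 12562 genes tested, for which the median SD was 0.23. Its lowest value was 2.75, its median 6.68 and its highest 10.07. Wif1 lay below 5 in 15 tumours and above 8 in 16, with no gap between them. Values ran from 2.93 to 10.07 within array set 1, from 3.35 to 9.57 in array set 3 and from 2.75 to 8.45 in array set 4, so low and high tumours occur in each set.

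Axin2 was low in most tumours and high in a few. Its values ran from 4.98 through a median of 5.49 to 9.80, with an SD of 1.05. The middle tumours, from the first to the third quartile, lay between 5.32 and 5.77. Of the 56 tumours, 12 exceeded 6, 7 exceeded 7 and 4 exceeded 8. The 4 highest were animal 4980 (9.80), animal 2703 (8.75), animal 3769 (8.66) and animal 5000 (8.56), of which the first and last belong to array set 4 and the others to array set 1. A second Axin2 probe set, dim at a mean of 2.99, followed the first with r = 0.868.

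Notum, the secreted enzyme that inactivates Wnt ligands, had a shorter tail of the same kind. It ran from 4.45 through a median of 4.84 to 6.79, with an SD of 0.44, and exceeded 6 in 3 tumours. These were animal 3769 (6.79), animal 2703 (6.50) and animal 4980 (6.21), which are also the 3 highest in Axin2. Animal 5000, the fourth highest in Axin2, was next in Notum with 5.49, and the highest of the 49 tumours with Axin2 below 7 reached 5.40. Notum was dim otherwise. To be tested, a gene needed a 95th percentile above 5.42, the median of all values on the arrays, and Notum exceeded that level in 4 tumours, which are the 4 highest in Axin2. It was therefore admitted to testing only through them, and tests with Notum as the response are not read as support for its relation with Axin2.

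The other secreted inhibitors varied moderately. Sfrp1 lay between 7.20 and 9.10 (median 8.24, SD 0.48), and Sfrp2 between 6.40 and 8.98 (median 7.86, SD 0.52). Dkk3 ran from 5.81 to 7.26 (median 6.47, SD 0.31). Dkk2 was dim throughout, from 3.41 to 5.11 (median 4.31, SD 0.41). Its 95th percentile did not pass the level asked of a gene for testing. Dkk2 therefore served only to rank other genes, and 9 of the 10 genes were tested. The 4 other Sfrp1 probe sets followed the chosen one with r between 0.508 and 0.914, and the other Dkk3 probe set with r = 0.881.

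The levels of the receptors differed between the array sets. Lrp5 ran from 5.44 through a median of 6.11 to 7.95, and the 8 arrays of array set 4 (7.56 to 7.95) did not overlap with the other 48, whose highest value was 6.88. Array set 4 was found from probe sets with a clear split of this kind, 121 of 45101. The lack of overlap is therefore not a result about Lrp5. Within array set 1 the SD of Lrp5 was 0.23 against 0.64 over all 56 arrays. Lrp6 ran from 8.51 to 9.48 (median 8.96, SD 0.24). Its second probe set (mean 6.95, SD 0.55) ran against the chosen one with r = -0.478 over the 56 arrays and r = -0.190 in array set 1. Several Lrp6 relations therefore change direction with the probe set. Lgr5 ran from 4.97 to 6.95 (median 5.84, SD 0.50), and its other probe set (mean 4.57, SD 0.13) did not follow it (r = 0.002).

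Relations between genes were tested by fitting all tested genes on the level of each of the 10 genes in turn with limma, with Benjamini-Hochberg adjustment over all of them. A pair counted as called where the adjusted p was under 0.05 in the fits on both of its genes. Both genes were tested in 36 of the 45 pairs, and 5 pairs were called: Axin2 with Notum, Sfrp2 with Dkk3, Sfrp1 with Lrp5, Sfrp1 with Lrp6, and Lrp5 with Lrp6. The first of these counts Notum as tested, with the limit given above. With array set as a block 2 pairs were called, the first and the second, where limma called 16.6% of all genes in the fit on Axin2, 9.66% on Notum, 13.4% on Sfrp2 and 2.37% on Dkk3. Without the block limma called 14.8% of all genes in the fit on Axin2, 14.3% on Notum, 11.2% on Sfrp2, 1.87% on Dkk3, 17.5% on Sfrp1, 38.8% on Lrp5, 26.1% on Lrp6, 9.59% on Wif1, 1.26% on Dkk2 and 2.63% on Lgr5.

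**Figure D2:**
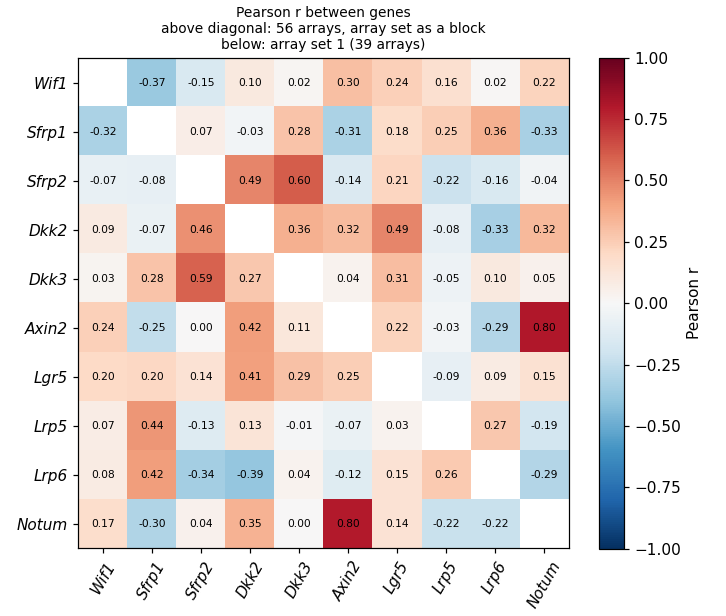
Pearson r between each pair of the 10 genes, above the diagonal over 56 arrays with array set as a block and below it in the 39 arrays of array set 1. Axin2 with Notum (0.80 and 0.80) and Sfrp2 with Dkk3 (0.60 and 0.59) have the highest values in both. In array set 1 Axin2 with Notum falls to 0.39 without the 2 arrays farthest from the median of Axin2.

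Axin2 and Notum rose together. Over the 56 tumours r was 0.782 and rho 0.455 (two-sided permutation p = 1e-05, the smallest that 100000 draws can give, and 0.00042), and limma's adjusted p was 1.53e-10 in the fit on Notum with Axin2, which exceeded the filter level in 33 tumours, as the response. Without the 2 arrays farthest from the median of Axin2 r was 0.655. It was 0.795 in array set 1, 0.717 in array set 3 and 0.936 in array set 4. Leaving out the 2 arrays farthest from the median of Axin2 within each set gave 0.392, 0.690 and 0.0842. The values in array sets 1 and 4 thus rest on few arrays. Most tumours were low in both genes, and few lie in the upper range of the plot of Notum against Axin2. An alternative chosen after seeing the data left out the 4 tumours highest in Axin2. Then r was 0.360 and limma's adjusted p in the fit on Notum was 0.0463, while Notum itself no longer passed the filter.

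**Figure D3:**
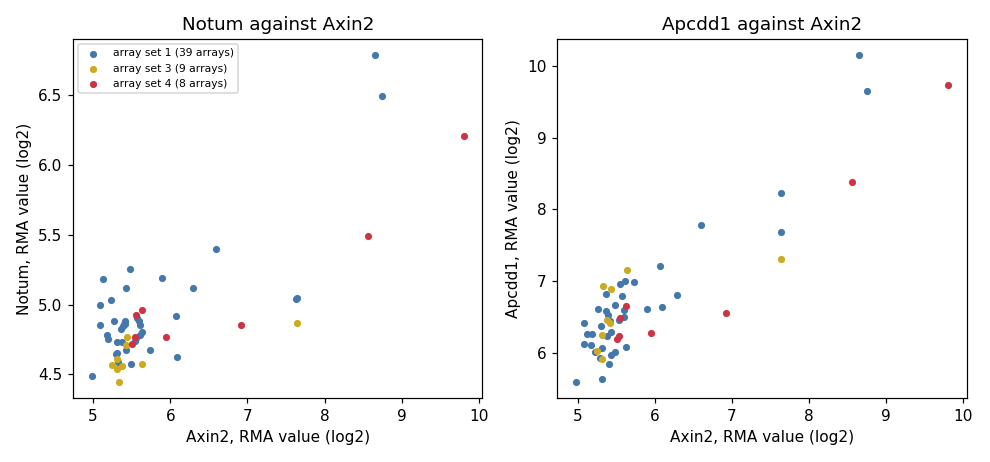
Notum (left) and Apcdd1 (right) against Axin2, all as RMA values (log2), 1 point per tumour, coloured by array set. The 3 tumours highest in Axin2 are also the 3 highest in Notum and in Apcdd1, and they come from array sets 1 and 4.

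Other genes of the pathway were read in the fit on Axin2. Of 87 listed, 62 were tested, and 19 rose with Axin2 and 2 fell (median r 0.11). Over all genes 8.65% rose and 6.16% fell, and the median r was -0.01. With array set as a block 19 rose and 4 fell, against 8.25% and 8.31% of all genes. The list was drawn up with earlier results known. Most of the calls rested on the high tumours: without the 4 tumours highest in Axin2, 5 genes were called, all of them rising, against 1.09% of all genes rising and 0.0878% falling. The 5 were Apcdd1, Tnfrsf19, Mmp7, Sostdc1 and Znrf3.

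Among the ligands and their processing enzymes, 4 of 10 rose. They were Wnt6 (r = 0.784), Porcn, which adds the lipid to Wnt ligands (0.627), Wnt5a, a ligand best known outside the beta-catenin branch (0.622), and Wnt11 (0.466). Wnt6 measured 6.82 in animal 4980, 6.59 in animal 2703, 6.19 in animal 3769 and 5.84 in animal 5000, against a median of 5.41 and a highest value of 5.88 in the 49 tumours with Axin2 below 7. The first 3 of these tumours lay above all 49. None of the 4 stayed past the threshold without the 4 high tumours (limma's adjusted p 0.242 to 0.800).

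Of 17 receptors and receptor regulators, 6 rose and 2 fell. Znrf3, the ligase that removes Frizzled receptors and is itself a target gene, had r = 0.753, Lgr6 0.563, Rnf43 0.472 and Fzd10 0.435. Znrf3 was 9.30 in animal 3769, 8.50 in animal 4980, 7.91 in animal 5000 and 7.65 in animal 2703, all above the highest of the 49 tumours, 7.21. The 2 that fell, named because there were only 2, were Fzd4 (r = -0.363) and Fzd9 (r = -0.351), and Fzd4 was not called with array set as a block (limma's adjusted p = 0.0861). Without the 4 high tumours Znrf3 alone of these 8 remained past the threshold (r = 0.478, limma's adjusted p = 0.0274).

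Apcdd1, a membrane protein that binds Wnt ligands and Lrp5 and inhibits the pathway, followed Axin2 most closely of the listed genes. It measured 10.15 in animal 3769, 9.73 in animal 4980, 9.65 in animal 2703 and 8.38 in animal 5000, against a median of 6.43 and a highest value of 7.78 in the 49 tumours. Over the 56 arrays r was 0.900 and rho 0.721 (permutation p = 1e-05 for each), with 0.929 in array set 1 and 0.733 without the 4 high tumours (limma's adjusted p = 1.75e-18 and 2.03e-07). The inhibitor Sostdc1 rose as well (r = 0.619, and 0.494 without the 4), and Kremen1, a receptor of Dkk proteins, had r = 0.361 over all and -0.02 without the 4. That made 3 of 7 inhibitors. Under the block 2 rose, since Kremen1 was not called (limma's adjusted p = 0.213), and 1 fell, the beta-catenin inhibitor Ctnnbip1 (partial r = -0.428).

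Of 7 target genes, 5 rose: Mmp7, a matrix protease (r = 0.787), Tnfrsf19, known as Troy (0.725), Myc (0.588), Nkd2, a feedback inhibitor that acts on Dishevelled (0.527), and Cd44 (0.474). Tnfrsf19 and Mmp7 each had r = 0.617 without the 4 high tumours. Myc had r = 0.421 there, with limma's adjusted p at 0.0990. Ccnd1, the cyclin D1 gene, did not follow Axin2 (r = 0.10, limma's adjusted p = 0.665). Of 11 cytoplasmic components 1 rose, the kinase Csnk1e (r = 0.405), and of 9 nuclear factors 0 were called by limma, with 2 at an unadjusted p under 0.05. Under the block the kinase Csnk1a1 rose as well (partial r = 0.549), and the nuclear factors Pygo2 (-0.363) and Tle2 (-0.387) fell. The 1 agonist tested was not called, nor was its unadjusted p under 0.05.

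Markers of hair and cornified skin rose with Axin2 too. The score of the list, the average of z-scores over its 12 measured genes, ran from -0.82 through a median of -0.51 to 3.43, so most tumours were low and a few high. Axin2 had r = 0.788 and rho = 0.558 with it (permutation p = 1e-05 for each), 0.646 without the 2 arrays farthest from the median score, 0.832 in array set 1 and 0.647 without the 4 tumours highest in Axin2. Limma's adjusted p was 2.33e-11, and 1.01e-05 without the 4. In the fit on this score 4.96% of all genes were called. Of the 12 list genes, 11 rose with Axin2, and the exception was Lor, the cornified envelope protein loricrin (r = -0.04). Several of the 12 are dim outside the high tumours, and Flg exceeded the filter level in 5 tumours, 3 of them among the 4 highest in Axin2. Notum had r = 0.651 with the score (rho = 0.331, permutation p = 4e-05 and 0.0128), 0.688 in array set 1, and 0.288 without the 4 tumours.

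The list's genes show the same tumours. Tchh, the hair follicle protein trichohyalin, was 11.14 in animal 2703, 11.08 in animal 4980, 9.93 in animal 3769 and 7.43 in animal 5000, with a median of 2.65 in the 49 tumours and a highest value of 10.03. Krt25, a keratin of the inner root sheath, was 10.18 in animal 4980, 9.54 in animal 2703, 7.05 in animal 3769 and 5.02 in animal 5000, with a median of 2.92 and a highest value of 7.80 in the 49. Both were chosen after their values were seen. Some tumours low in Axin2 thus held high Tchh and Krt25, and the overlap is not one-to-one. Among the 10 listed genes of basal epithelium, 5 rose with Axin2 and 1 fell, led by Krt14 (r = 0.727), against 8.65% and 6.16% of all genes. With the block 5 rose and the falling call was lost, and the basal score itself was not called with Axin2 (r = 0.359, limma's adjusted p = 0.123). The part of skin or hair tissue in the Axin2 and Notum relations was not tested.

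The genes nearest to Axin2 were, by r among those also called with array set as a block, Cryba4, a crystallin (0.942), Krt16, a keratin of stratified epithelium (0.904), Apcdd1, Krt73, a hair follicle keratin (0.893), and Sprr1b, a cornified envelope protein (0.885). Cryba4 exceeded the filter level in 6 tumours and Sprr1b in 3, all of them among the 7 highest in Axin2, so both were admitted through the tumours that give them their r. Without the 4 high tumours r for the 5 genes ran from 0.733 to 0.871. Krt73 was 11.32 in animal 4980, 11.03 in animal 2703, 9.25 in animal 3769 and 7.43 in animal 5000, and its median in the 49 tumours was 5.33. The largest negative values belonged to Bfar (-0.670), Ctso (-0.663) and Mrps6 (-0.662). Nearest to Notum were Cnfn, a cornified envelope protein (0.906), Atg9b (0.878), Wnt6 (0.850), Krt26, another hair follicle keratin (0.849), and Crym (0.844), with Satb1 (-0.668), Tspyl4 (-0.658) and Ttc28 (-0.639) on the negative side. Cnfn, Atg9b, Krt26 and Crym exceeded the filter level in 3, 4, 4 and 4 tumours, so their rank too rests on the tumours that admitted them. Axin2 also rose with the mitosis score (r = 0.383, rho = 0.366, permutation p = 0.00436 and 0.00561, limma's adjusted p = 0.0164, against 24.6% of all genes called), though not past the threshold in array set 1 (r = 0.248, adjusted p = 0.311).

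Wif1, the most variable gene, did not follow Axin2 or Notum past the threshold. Over the 56 tumours r with Axin2 was 0.231 (rho = 0.07, permutation p = 0.0860 and 0.603, limma's larger adjusted p = 0.252), and r with Notum was 0.152 (adjusted p = 0.480). The array sets differed: in array sets 1, 3 and 4 r with Axin2 was 0.237, -0.0536 and 0.725, and r with Notum 0.172, -0.268 and 0.655. The 4 tumours highest in Axin2 had Wif1 values of 8.45, 8.67, 8.93 and 7.17, while the other tumours reached both the lowest (2.75) and the highest (10.07) Wif1 value. Wif1 was likewise not called with the hair and skin score (r = 0.251, limma's adjusted p = 0.332). Its relation with Sfrp1 was negative, r = -0.303 over all and -0.319 in array set 1, without passing the threshold (limma's larger adjusted p = 0.116, and 0.0520 with array set as a block).

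In the fit on Wif1, 10 of the 62 other pathway genes were called, all of them rising, with a median r of 0.11, against 6.69% and 2.90% over all genes, whose median r was 0.02. Nkd2 had the highest value (r = 0.569, rho = 0.530, permutation p = 1e-05 and 6e-05, limma's adjusted p = 6.79e-04) and stayed past the threshold in array set 1 (r = 0.577, adjusted p = 0.0131). Ctnnb1, which encodes beta-catenin, followed (r = 0.541, rho = 0.517, permutation p = 1e-05 and 8e-05, limma's adjusted p = 0.00253), with 0.487 in array set 1, where it missed the threshold (adjusted p = 0.0873). The receptor Fzd6 had r = 0.485, the ligand transporter Wls 0.398, Csnk1e 0.389, Znrf3 0.388, Sostdc1 0.380, the receptor Ror2 0.376, Lgr4 0.367 and Lgr6 0.366. In the blocked fit 11 rose and 2 fell, against 9.14% and 3.46% of all genes. Sostdc1 (limma's adjusted p = 0.0507) and Ror2 (0.0705) were then not called, Ror1, Amer1 and Tle3 rose, and the nuclear factors Tcf7l2 (partial r = -0.419) and Tle4 (-0.466) fell. Without the block 0 of 9 nuclear factors were called by limma, with 2 at an unadjusted p under 0.05. In array set 1 alone 1 pathway gene rose and 1 fell, against 1.27% and 0.576% of all genes.

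The genes nearest to Wif1 differed from those nearest to Axin2. They were Slc39a8, a zinc and manganese importer (r = 0.740), Fbp1, an enzyme of gluconeogenesis (0.738), the transcription factors Bcl11a (0.736) and Meis1 (0.732), and Calml3, a calmodulin-like protein (0.726). All 5 had r of at least 0.713 in array set 1. Tceal8 (-0.665), Tc2n (-0.617) and B4galt6 (-0.601) had the largest negative values. Of the tissue scores, Wif1 fell with that of luminal epithelium (r = -0.448, rho = -0.450, permutation p = 3.3e-04 and 5.9e-04, -0.495 in array set 1, limma's adjusted p = 0.00313). In the fit on that score 33.3% of all genes were called, and 1 of its 11 genes was called in the fit on Wif1. With all 68 arrays r was 0.000822 (adjusted p = 0.995), so this relation was not seen when the 12 arrays with high 18S values entered. Wif1 also fell with the endothelium score (r = -0.334, limma's adjusted p = 0.0355, and 0.0857 with array set as a block). The fit on the endothelium score called 30.7% of all genes.

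**Figure D4:**
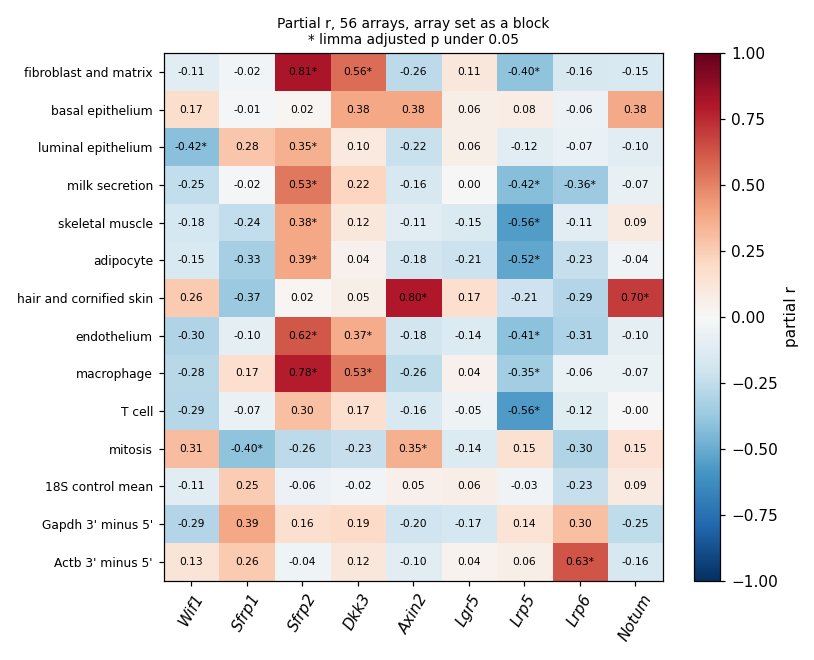
Partial r of the 9 tested genes with 11 tissue scores and 3 technical measures over 56 arrays, with array set as a block, and an asterisk where limma's adjusted p was under 0.05. Sfrp2 has its highest values with the fibroblast and matrix score (0.81) and the macrophage score (0.78), and Axin2 and Notum with the hair and cornified skin score (0.80 and 0.70).

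Sfrp2 followed markers of the connective tissue. Of the 99 relations between the 9 tested genes and the 11 tissue scores, 21 were called, and 7 of these were of Sfrp2. The fits on these scores called between 2.22% and 33.3% of all genes, so the count of 21 alone does not set the 9 genes apart. The 1 call of Notum, with hair and cornified skin, carries the limit of its filter. Sfrp2 rose with the fibroblast and matrix score (r = 0.815, rho = 0.759, permutation p = 1e-05 for each, limma's adjusted p = 1.25e-12), with 0.803 in array set 1, 0.877 in array set 3 and 0.879 in array set 4. In the fit on that score 19.5% of all genes were called. In the fit on Sfrp2 all 14 fibroblast and matrix genes and all 8 macrophage genes rose, with median r of 0.66 and 0.64, where 8% of all genes rose. The score ran from -3.19 to 2.63 SD units.

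The genes nearest to Sfrp2 were the collagens Col6a1 (0.782), Col5a1 (0.776) and Col3a1 (0.774), which belong to the fibroblast list, Srpx2 (0.779) and the macrophage lysozyme Lyz2 (0.775). Asph (-0.574), 5430416N02Rik (-0.568) and Pvt1 (-0.565) were on the negative side. Sfrp2 rose with the macrophage score (r = 0.731, against 31.9% of all genes called), endothelium (0.601, 30.7%), milk secretion (0.535, 22.8%), adipocyte (0.399, 19.6%), skeletal muscle (0.396, 12.8%) and luminal epithelium (0.330, 33.3%). In array set 1 the last 3 did not pass (limma's adjusted p 0.119 to 0.496). The part of each tissue in these relations was not tested.

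Dkk3 moved with Sfrp2. Over the 56 tumours r was 0.602 and rho 0.600 (permutation p = 1e-05 for each), with limma's larger adjusted p at 5.49e-04. The value was 0.519 without 2 arrays, 0.587 in array set 1 (adjusted p = 0.0145), 0.780 in array set 3 and 0.548 in array set 4. Dkk3 rose with the fibroblast and matrix score (r = 0.558, rho = 0.521, limma's adjusted p = 1.19e-04, 19.5% of all genes called), the macrophage score (0.481, 31.9%) and the endothelium score (0.332, 30.7%). Of the 14 fibroblast genes 10 rose in the fit on Dkk3, against 1.82% of all genes. Its nearest genes were Pdgfrl (0.764), the matrix proteases Mmp2 (0.696) and Mmp3 (0.643), the collagen Col5a2 (0.690) and Antxr1 (0.652). Fads6 (-0.485), 5430416N02Rik (-0.457) and Dtna (-0.443) had negative values.

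Dkk2, dim as it was, could enter only as the predictor. Sfrp2 (r = 0.480, rho = 0.522, permutation p = 1.8e-04 and 6e-05, limma's adjusted p = 0.0294) and Lgr5 (r = 0.452, rho = 0.505, permutation p = 4.7e-04 and 1e-04, adjusted p = 0.0391) passed in the fit on it, and the adjusted p of each was 0.0608 with array set as a block. Of the 14 fibroblast genes 4 rose with Dkk2 (0.597% of all genes), and 1 with the block (0.0955%). Its nearest genes were Pcsk5 (0.599), Bnc2 (0.581), Scn7a (0.569), Dio2 (0.545) and Ugcg (0.539), and on the negative side Pyurf (-0.610), Thyn1 (-0.587) and Shisa2 (-0.540). In array set 1 alone none of these 8 passed (limma's adjusted p 0.225 to 0.289).

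Sfrp1, Lrp5 and Lrp6 moved together over the 56 arrays, though not within each array set, and with technical measures. The Sfrp1 and Lrp6 pair had r = 0.567 (rho = 0.601, permutation p = 1e-05 for each, limma's larger adjusted p = 3.97e-04), with 0.420 in array set 1 (adjusted p = 0.0966), and its adjusted p was 0.0724 with array set as a block. It had r = -0.455 in array set 3 and 0.629 in array set 4. With the mean over all probe sets of a gene r was -0.05. For the pairs with Lrp5, where array set 4 stands apart, only values within a set are given. In array set 1 r was 0.443 with Sfrp1 (permutation p = 0.00448, limma's larger adjusted p = 0.0722) and 0.262 with Lrp6 (permutation p = 0.108, adjusted p = 0.292). For Lrp5 with Sfrp1 r was -0.650 in array set 3 and 0.417 in array set 4. For Lrp5 with Lrp6 it was 0.755 and -0.282.

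**Figure D5:**
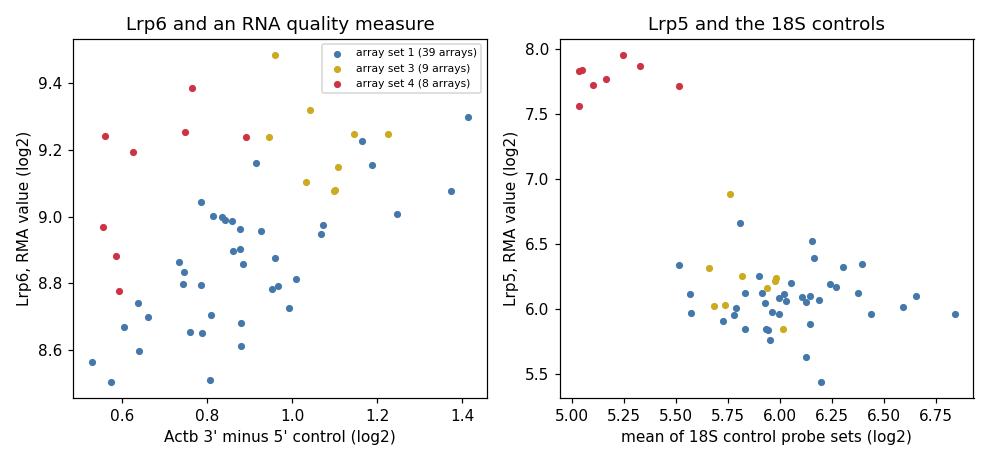
Left, Lrp6 against the 3' minus 5' difference of the Actb control probe sets, and right, Lrp5 against the mean of the 18S control probe sets, 1 point per array (log2), coloured by array set. Lrp6 rises along the Actb difference within array set 1 (r = 0.713), and the 8 arrays of array set 4 lie high in Lrp5 (7.56 to 7.95). Array set 4 was itself found from probe sets with a clear split of this kind.

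Of 27 relations between the 9 genes and 3 technical measures, 7 were called: 3 of Lrp6, 3 of Lrp5 and 1 of Sfrp1. The fits on these measures called between 15.8% and 36.8% of all genes. The 3' minus 5' differences of the Actb and Gapdh controls rise as RNA is degraded or labelled incompletely. Lrp6 rose with the Actb difference (r = 0.474, rho = 0.474, permutation p = 1.9e-04 and 2.4e-04, limma's adjusted p = 0.00135, against 36.8% of all genes called). In array set 1 r was 0.713 (adjusted p = 8.17e-05), and with array set as a block the adjusted p was 1.14e-04, the 1 relation of the 7 that was still called (11.4% of all genes). The second Lrp6 probe set had r = -0.203 with the Actb difference. Lrp6 with the Gapdh difference had r = 0.631 over all (15.8% of all genes called) and 0.271 in array set 1, and with the 18S controls -0.444 (19.4% called) and -0.220. Sfrp1 rose with the Gapdh difference (r = 0.620, rho = 0.593, permutation p = 1e-05 for each), with 0.417 in array set 1 (limma's adjusted p = 0.117). Lrp5 had r = -0.01 with the 18S controls in array set 1, 0.262 with Gapdh and 0.159 with Actb.

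All 6 relations called between these 3 genes and tissue scores were negative. Sfrp1 fell with the adipocyte score (r = -0.401, rho = -0.430, -0.490 in array set 1, limma's adjusted p = 0.0133, and 0.0603 with array set as a block). Lrp6 fell with the scores of milk secretion (r = -0.441, 22.8% of all genes called), endothelium (-0.376, 30.7%), macrophages (-0.346, 31.9%) and adipocytes (-0.345, 19.6%). Of these, milk secretion stayed past the threshold with the block (limma's adjusted p = 0.0344). With the mean over both Lrp6 probe sets each of these 4 r values turned positive, 0.129, 0.00631, 0.144 and 0.00557. Lrp5 fell with the skeletal muscle score, with r = -0.581 in array set 1 (permutation p = 1e-04, limma's adjusted p = 0.00368), -0.464 in array set 3 and -0.666 in array set 4. In array set 1, 11 of the 12 muscle genes fell with Lrp5, against 3.86% of all genes. The basal epithelium and T cell scores were called by limma with 0 of the 9 genes, with 3 genes each at an unadjusted p under 0.05, in fits that called 2.22% and 20.3% of all genes.

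Nearest to Sfrp1 were Nck2 (0.789), Creb5 (0.716), Ncdn (0.713), Hs3st1 (0.709) and Papln (0.708), with Acat1 (-0.701), Rnaseh2c (-0.675) and Polb (-0.673) on the negative side. Nearest to Lrp6 were Bmt2 (0.774), Rnf169 (0.758), Nfib (0.757), Spry2 (0.755) and Trim8 (0.751), with Rnf4 (-0.766), Abcb8 (-0.750) and Ppp4c (-0.738). For Lrp5 the genes were chosen by r over all 56 arrays, in which array set 4 stands apart, and are not the nearest by partial r. Their partial r with array set as a block was smaller in size: Med15 (0.551), Fntb (0.506), Trim32 (0.414), Atn1 (0.413) and Polr2a (0.404), with Clcn5 (-0.495), Tkt (-0.435) and Rab3a (-0.388) on the negative side. Of the 4874 genes called in the fit on Lrp5, 830 were called with the same sign with the block. The same was true of 733 of 2194 for Sfrp1, 1619 of 3275 for Lrp6, 1342 of 1861 for Axin2, 1101 of 1204 for Wif1 and 1355 of 1411 for Sfrp2.

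Lgr5, the receptor of R-spondins, had no gene called with array set as a block. Of the 330 genes called in its fit, 0 were called by limma with array set as a block, where 619 of 12561 had an unadjusted p under 0.05. Its median was 5.84 in array set 1, 6.55 in array set 3 and 5.57 in array set 4. Lgr5 was not called with Axin2 (r = 0.10, limma's larger adjusted p = 0.692) or with Notum (r = -0.02, adjusted p = 0.961).

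The animal numbers and the suffix R were compared last. Animal numbers leave a gap between 3891 and 4946, and 15 of the 56 arrays lie above it. Lrp5 had a median of 7.56 (5.85 to 7.95, n = 15) above and of 6.08 (5.44 to 6.88, n = 41) below, a difference of means of 0.92 (limma's adjusted p = 8.65e-06). Sfrp1 was 0.47 higher (adjusted p = 0.00562) and Lrp6 0.18 higher (adjusted p = 0.0459), so 3 of 9 genes were called, where limma called 21.7% of all genes. With the mean over both of its probe sets Lrp6 was not called (limma's adjusted p = 0.367). With array set as a block, or in array set 1, 0 of 9 were called by limma, with 0 at an unadjusted p under 0.05, and 0 of all tested genes (0%) were called in either. All 8 arrays of array set 4 lie above the gap and add nothing to the blocked difference. Array set 1 holds 4 arrays above it and 35 below. With so few arrays above the gap, these fits cannot show that the differences vanish.

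Between the 8 arrays with the suffix R and the 48 without, Lgr5 was 6.30 ± 0.41 against 5.82 ± 0.48, a difference of 0.49 (limma's adjusted p = 0.0282). Lrp6 was 9.22 ± 0.14 against 8.90 ± 0.22, a difference of 0.32 (adjusted p = 0.0015). Its second probe set went the other way, with a mean of 6.24 in array set 3 against 7.16 in array set 1. With the mean over both probe sets Lrp6 was lower in the arrays with R, also past the threshold (limma's adjusted p = 0.0317). Limma called 32.8% of all genes. With array set as a block the comparison is of 8 arrays against 1, within array set 3, and cannot test the difference. Only its size is given, -0.652 for Lgr5 and 0.0749 for Lrp6. All 8 arrays with R lie in array set 3 beside 1 without R, so that suffix and array set can hardly be told apart.

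Mir1931 and BC018473, whose levels fall into separate clusters among these animals, were set beside the 10 genes. In the fits on them limma called 0 of the 9 tested genes, with 1 (Mir1931) and 0 (BC018473) at an unadjusted p under 0.05. Of all genes 0.0318% and 1.27% were called. Among the 113 tested genes within 10 Mb of Wif1 on chromosome 10, 16 were called in the fit on Wif1 (14.2%, against 9.59% of all genes), and among the 262 within 10 Mb of Axin2 on chromosome 11, 46 in the fit on Axin2 (17.6%, against 14.8%). For the other genes the share of neighbours called ran from 0% for Dkk2 (1.26% of all genes) to 52.5% for Lrp5 (38.8%), and none of these differences was tested.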

How the data were processed

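Total RNA of 68 mammary tumours was hybridised to Affymetrix arrays with one-cycle biotin labelling, per the labels. Per the submitters' processing notes RMA was used to make the deposited log2 values. The sources used here give no version. The log base was read from the range, 1.68 to 14.57. RMA normalises the arrays to a common distribution, so a shift in all genes cannot be seen. The number of arrays limits the precision.

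The table holds 45101 probe sets, of which 34958 have 1 gene in the platform annotation, 932 several and 9211 are not listed. A gene was tested if its 95th percentile exceeded 5.42, the median over all values of the 56 arrays (12562 genes). They were fitted in R 4.3.3 with limma 3.58.1 (lmFit, eBayes) on each standardised gene level, tissue score, control measure or label. A gene was left out of the fit on itself. A score's own genes stayed in the fit on that score, so the shares of all genes called there include them. P-values were adjusted by Benjamini-Hochberg over all tested genes, with a threshold of 0.05. The fit was tested on simulated data. P-values of r and rho came from 100000 permutations, two-sided. An array set was defined by a split that 20 or more probe sets from 10 or more chromosomes shared, with Ashman's D above 4.5 and no side under 15% of the arrays.

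The text names all 10 genes, and for each the 5 genes with the highest and the 3 with the lowest r also called with array set as a block. The plan was to name up to 4 called pathway genes per role. More are named for some roles, such as receptors and target genes, and Ccnd1 is named though it was not called. The members and lists were chosen with earlier results of these data known. The alternatives were all 68 arrays, array set as a block, array set 1 alone, the mean over probe sets, no filter, a stricter filter, centred arrays and ranks. The log2 values were not renormalised. Nothing in the labels says that the animals were littermates or that tumours were handled together.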

Additional observations from a re-analysis of the deposited data

Results flagged for a closer look

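Of 30 groups of 4 to 10 arrays searched for a value far from the rest, 4 had one, and chance gives about 1 in 20. They come from 2 arrays, since array set 3 and the suffix R share 8 arrays. Axin2 was 7.64 in 1 array of the 8 with the suffix R and of array set 3, where the next value was 5.63. This is animal 3039, the fifth highest in Axin2 of all 56, and its Krt6b, a keratin of stratified epithelium, was 11.09 against a highest value of 8.58 in the 49 tumours with Axin2 below 7. Lrp5 was 6.88 in 1 array of the same 8 and of array set 3, where the next value was 6.32.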

How the results depend on the processing

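The levels of the 10 genes and the single relations and differences called above were recomputed under the alternatives. Of these values 501 were unchanged. For a relation this means the same direction and side of the threshold, and for a level a shift below its SD. Another 129 relations or differences lost the threshold, 15 reversed, and 4 levels moved by more than the SD. The count of called pairs went from 5 to 2 with array set as a block, 2 in array set 1 and 3 with the mean over probe sets. Pathway genes called with Axin2 went from 21 to 12 in array set 1 and 5 without the 4 tumours highest in Axin2, an alternative chosen after seeing the data. Those called with Wif1 went from 10 to 18 with all 68 arrays, 2 in array set 1, and 6 each with the mean over probe sets, with no filter and without the 4 tumours. Technical relations went from 7 to 1 with the block, 1 in array set 1 and 4 with the mean over probe sets. Calls between number ranges went from 3 to 0 with the block and 0 in array set 1, where few arrays lie above the gap. Calls for the suffix R went from 2 to 1 with all 68 arrays, and the block cannot test them. With the mean over probe sets Lrp6 reversed for Sfrp1 (r = -0.046), milk secretion (0.129), adipocyte (0.00557), endothelium (0.00631), macrophage (0.144), 18S (0.10), Gapdh (-0.102), the number range (-0.0952) and the suffix R (-0.231), since its 2 probe sets run against each other. The reversed difference for the suffix R was itself past the threshold (limma's adjusted p = 0.0317). With the block Lrp5 reversed for Actb (0.0565, and 0.159 in array set 1) and the number range (-0.0141). Lgr5 reversed for the suffix R (-0.652), where the block leaves 1 array without R to compare. Wif1 with luminal epithelium reversed with all 68 arrays (0.000822), and Kremen1 with Axin2 without the 4 tumours (-0.0242). The causes of these reversals other than Lrp6's were not tested. No paired analysis was possible because the 56 arrays hold 1 array per animal and the labels form 1 group. The 68 arrays come from 66 animal numbers, so 2 animals enter that alternative with 2 arrays each. The signal over background of single probes was not used here, which limits what can be said of dim genes such as Dkk2.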
